A study of Mus musculus with 6 samples.

Results

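The genes examined were the steroid receptor and 5α-reductase genes of the mouse epididymis. They were taken by gene symbol from the count table of the whole epididymis, without use of their values, and comprised Esr1, Esr2, Gper1, Pgr, Nr3c1, Nr3c2, Srd5a1, Srd5a2 and Srd5a3. All 9 were listed among the 57127 genes of the table, and 8 were abundant enough to be tested, Gper1 being the exception. Wild-type (WT) and Ocln-KO (Ocln-/-) mice were compared, both adult and on the C57BL/6 strain, with 3 libraries of whole epididymis RNA in each genotype. No treatment and no tissue-specific deletion is described, and the Ocln-KO males came from heterozygous pairings because Ocln-KO males are sterile. The methods state that RNA was extracted from 3 pairs of mice separately and also speak of pooled RNA samples, so n counts libraries. Because the whole organ was used, fewer cells of a type and less RNA per cell cannot be told apart in any value below.

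The epididymis depends on steroids that reach it from the testis in fluid and from the blood. Its epithelium reduces testosterone with 5α-reductases to dihydrotestosterone, the more potent androgen. SRD5A1 and SRD5A2 are the steroid reductases of the family, and SRD5A3 is known mainly as the polyprenol reductase that makes dolichol for protein glycosylation. Estrogen acts through ESR1 and ESR2 in the nucleus and through the membrane receptor GPER1, and ESR1 is known for its part in fluid reabsorption in the efferent ducts and epididymis. PGR, NR3C1 and NR3C2 are the receptors of progesterone, glucocorticoids and mineralocorticoids. All of these nuclear receptors bind DNA as ligand-activated transcription factors.

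Libraries held between 30646424 and 38870780 counts, and levels are given in CPM (counts scaled by TMM factors to a common library size), under which 1 count equals between 0.0267 and 0.0314 CPM. Ocln itself was at 85.9, 78.8 and 91.8 CPM in the WT libraries and at 15.1, 15.3 and 14.9 CPM in the Ocln-KO libraries. Its log2 fold change was -2.50 (adjusted p = 0.000108, by the quasi-likelihood test of edgeR after Benjamini-Hochberg correction, which is the test behind every adjusted p below unless another is named). Ocln-KO replicate 3 stood apart from the other libraries, at 86.3 on a first principal component on which the other Ocln-KO libraries lay at 17.7 and 29.1. The record of the extraction names prefrontal cortex. Of 6 brain markers, Neurod6 was at 0 and Snap25 at most at 0.0628 CPM in any library, Gfap and Slc17a7 were at 0.294 to 0.681 CPM, and Syt1 and Mbp at 9.05 to 16.7 CPM. The epididymal gene Adam7 had between 5071 and 9304 CPM.

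Of the 8 tested genes, Srd5a1 and Srd5a3 fell in Ocln-KO epididymis and none rose (adjusted p under 0.05 by the same test over all 19691 genes), with 3 at an unadjusted p under 0.05 in the lower direction and 1 in the higher. That is 2 of 8 genes, against 8.95% of all tested genes in either direction, of which 5.04% were lower and 3.91% higher. The DESeq2 test called 3 genes lower, Esr1 being the third, and Nr3c1 higher. Only Srd5a1 also passed the fold change threshold of the study's methods, under 0.5, as did 1.7% of tested genes in this direction and 3.19% in either. Both calls depended on single libraries. Without WT replicates 1, 2 or 3 neither gene passed, without Ocln-KO replicate 1 Srd5a1 alone did, without Ocln-KO replicate 2 Srd5a3 alone did, and without Ocln-KO replicate 3 Srd5a1 and Esr1 did. WT and Ocln-KO values were fully apart for Esr1, Nr3c1, Srd5a1 and Srd5a3, that is, 4 of the 8 tested genes, against 36.3% of all tested genes (19.4% lower and 16.9% higher). The median log2 fold change of the 8 genes was -0.20, against 0.01 for all tested genes.

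**Figure D1:**
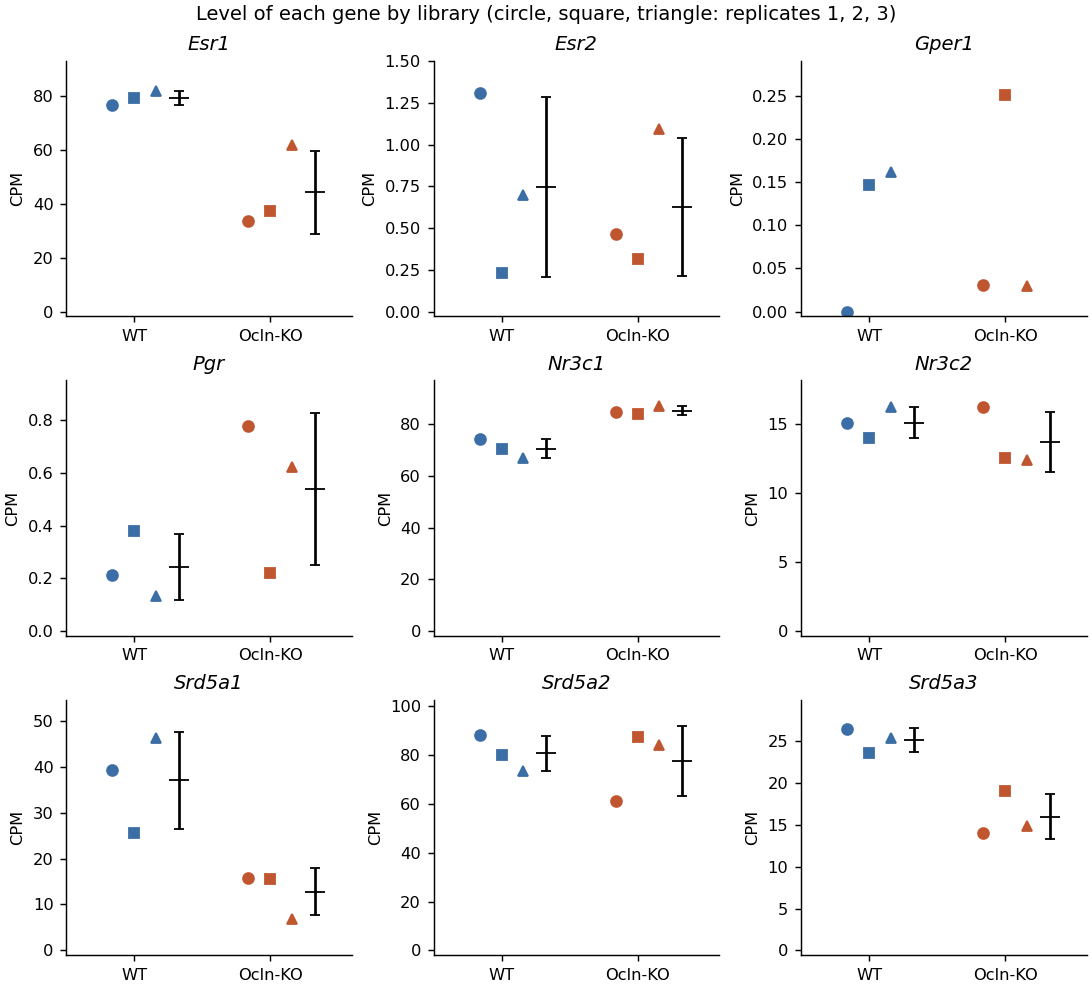
Level of each gene in CPM (vertical axes, each including 0 and with its own range) in the 3 WT and 3 Ocln-KO libraries, with the mean and SD in black beside the points except for Gper1, which had too few counts to be tested. The Ocln-KO points of Srd5a1, Srd5a3 and Esr1 lie below every WT point, those of Nr3c1 lie above, and those of Srd5a2 overlap with WT.

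The reductase genes differed in whether they passed the test. The sequences just upstream of their start sites are shown because Srd5a1 and Srd5a3 fell while Srd5a2 did not pass the test. They are the 190 bases from 250 to 61 before the RefSeq transcript start (GRCm38.p6), 5′ to 3′ on the gene's strand, with GC boxes (GGGCGG) and CCAAT boxes (CCAAT), on either strand, in capitals. For Srd5a1 the transcript start used lies inside the gene span given below, not at its outer end, 69611485.
Srd5a1 (chr13:69611524-69611713, minus strand): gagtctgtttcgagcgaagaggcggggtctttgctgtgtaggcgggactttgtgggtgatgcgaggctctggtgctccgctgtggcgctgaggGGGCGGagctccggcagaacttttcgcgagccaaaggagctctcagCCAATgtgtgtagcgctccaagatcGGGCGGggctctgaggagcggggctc
Srd5a2 (chr17:74047921-74048110, minus strand): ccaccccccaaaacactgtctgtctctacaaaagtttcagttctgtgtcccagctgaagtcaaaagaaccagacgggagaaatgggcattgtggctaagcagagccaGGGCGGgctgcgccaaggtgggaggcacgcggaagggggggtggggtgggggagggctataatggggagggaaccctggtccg
Srd5a3 (chr5:76140023-76140212, plus strand): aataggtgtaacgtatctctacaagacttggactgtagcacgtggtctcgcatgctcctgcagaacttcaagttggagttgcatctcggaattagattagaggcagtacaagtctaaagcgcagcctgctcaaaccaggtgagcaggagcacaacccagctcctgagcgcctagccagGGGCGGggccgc
Each of the 3 windows held a GC box, 2 of them in Srd5a1, and so did 22.8% of the 32851 upstream windows of this length in the RefSeq table. Srd5a1 also held a CCAAT box, as did 26.7% of all windows. The element bound by the glucocorticoid, mineralocorticoid and progesterone receptors (TGTTCT, in 12.7% of all windows) and that of the estrogen receptors (AGGTCA, in 10.8%) matched in none of the 3 windows. GC content was 63.7% for Srd5a1, 60% for Srd5a2 and 54.2% for Srd5a3, against a median of 51.6%.

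Srd5a1 (chromosome 13, 69573449 to 69611485, minus strand) had 39.3, 25.6 and 46.3 CPM in the WT libraries and 15.9, 15.6 and 6.93 CPM in the Ocln-KO libraries. All Ocln-KO libraries lay below the lowest WT library, and Ocln-KO replicate 3 was the lowest of all. The means were 37.0 ± 10.5 CPM for WT against 12.8 ± 5.08 CPM for Ocln-KO (SD, n = 3 per genotype), so that the Ocln-KO level was 34.5% of the WT level. On the log2 scale Srd5a1 changed by -1.53 (standard error 0.33, 95% interval -2.31 to -0.76, edgeR adjusted p = 0.0355). With a library left out it lay between -1.74 and -1.24, and the adjusted p rose to 0.125, 0.0602 and 0.13 without WT replicates 1, 2 and 3 and to 0.0689 without Ocln-KO replicate 2. Without Ocln-KO replicate 3, the lowest library, Srd5a1 changed by -1.24 with an adjusted p of 0.0178. The gene lies within the span of Nsun2, an RNA methyltransferase gene on the other strand, with which it shares no exon in GENCODE, and the strand setting of the counting was not stated. A sense transcript, Gm17108, overlaps its exons and CT025731.1 overlaps an exon of Srd5a2, so reads of these could be shared or lost. Nsun2 had 88.3 ± 1.56 CPM for WT against 83.2 ± 8.43 CPM for Ocln-KO (SD, n = 3 per genotype), and its libraries overlapped.

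Srd5a3 (chromosome 5, 76140273 to 76155503, plus strand) had 26.4, 23.6 and 25.3 CPM in the WT libraries and 14.1, 19.0 and 14.8 CPM in the Ocln-KO libraries. The WT libraries were close to each other, with a coefficient of variation of 5.66% against 28.4% for Srd5a1, and each lay above every Ocln-KO library. The mean fell from 25.1 ± 1.42 to 15.9 ± 2.66 CPM (SD, n = 3 per genotype), to 63.5% of the WT level. On the log2 scale Srd5a3 changed by -0.65 (standard error 0.14, 95% interval -0.98 to -0.33, edgeR adjusted p = 0.0339). The adjusted p rose to 0.128, 0.079 and 0.119 without WT replicates 1, 2 and 3, and to 0.0592 and 0.0539 without Ocln-KO replicates 1 and 3, while the log2 fold change stayed between -0.80 and -0.57.

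Srd5a2 (chromosome 17, 74014891 to 74047860, minus strand), the other steroid reductase, had 88.0, 80.2 and 73.5 CPM in the WT libraries and 61.0, 87.2 and 84.0 CPM in the Ocln-KO libraries. Ocln-KO replicate 1 was below every WT library and the other Ocln-KO libraries were within the WT range. The means were 80.6 ± 7.29 CPM for WT against 77.4 ± 14.3 CPM for Ocln-KO (SD, n = 3 per genotype). The log2 fold change of -0.06 did not pass the test (standard error 0.15, edgeR adjusted p = 0.83), with a 95% interval of -0.39 to 0.28. That interval overlapped the interval of Srd5a3, -0.98 to -0.33, and not that of Srd5a1, -2.31 to -0.76. Differences between the genes were not tested. The log2 fold change of Srd5a2 was 0.02 when scaled by library totals only, and 0.01 and 0.09 without WT replicate 1 and without Ocln-KO replicate 1.

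Ratios of counts within a library do not depend on the scaling. The pairs were chosen after their values were seen and are given without a test. The ratio of Srd5a1 to Srd5a2 counts was 0.446, 0.319 and 0.63 in the WT libraries and 0.26, 0.178 and 0.0825 in the Ocln-KO libraries. The ratio of Srd5a3 to Srd5a2 counts was 0.313 ± 0.0275 in WT and 0.208 ± 0.0283 in Ocln-KO (SD, n = 3 per genotype). Neither ratio overlapped between the genotypes, whereas the ratio of Srd5a1 to Srd5a3 overlapped, with 1.083 to 1.83 in WT and 0.468 to 1.13 in Ocln-KO.

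Per kb of exon (GENCODE, all exons of a gene joined), Srd5a2 was the most abundant of the reductases in both genotypes, at 50.2 ± 4.54 CPM per kb in WT and 48.2 ± 8.89 CPM per kb in Ocln-KO (SD, n = 3 per genotype). On this scale the Srd5a1 level was 12.7 ± 3.62 in WT and 4.40 ± 1.75 in Ocln-KO, and the Srd5a3 level was 5.40 ± 0.306 and 3.43 ± 0.572 (SD, n = 3 per genotype). Srd5a1 was above Srd5a3 in each WT library, while their Ocln-KO levels overlapped. Of the sum of the 3 levels, Srd5a1 made up 13.8% to 23.7% in WT libraries and 4.11% to 11.7% in Ocln-KO libraries. Srd5a2 made up 68.2% to 78.3% and 81.8% to 90.4%.

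**Figure D2:**
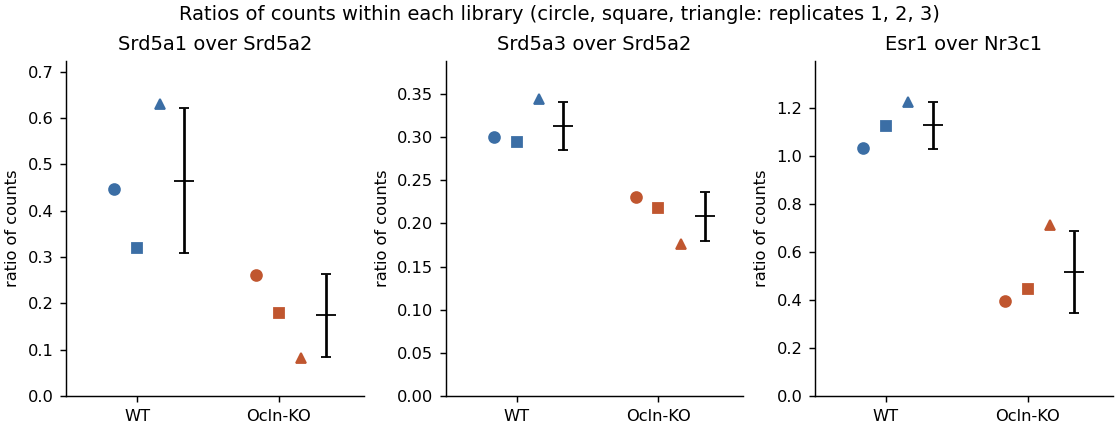
Ratio of the counts of 2 genes within each library (vertical axes, from 0) for Srd5a1 over Srd5a2, Srd5a3 over Srd5a2 and Esr1 over Nr3c1 in the 3 WT and 3 Ocln-KO libraries, with the mean and SD in black. In each of the 3 panels every Ocln-KO ratio lies below every WT ratio, the lowest ratio of Srd5a1 over Srd5a2 being 0.0825 in Ocln-KO replicate 3.

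Among the estrogen receptors, Esr1 was the abundant one. Esr1, which encodes estrogen receptor α (chromosome 10, 4611989 to 5005633, plus strand), had 76.6, 79.3 and 81.8 CPM in the WT libraries and 33.6, 37.3 and 62.0 CPM in the Ocln-KO libraries. The WT libraries differed little, with a coefficient of variation of 3.28%, and Ocln-KO replicate 3 lay between the other Ocln-KO libraries and WT. The means were 79.3 ± 2.60 CPM for WT against 44.3 ± 15.5 CPM for Ocln-KO (SD, n = 3 per genotype), 55.9% of the WT level. For Esr1 the log2 fold change was -0.84 (standard error 0.21, 95% interval -1.33 to -0.34), and the edgeR adjusted p was 0.0505, just over the threshold. Leaving out Ocln-KO replicate 3 gave a log2 fold change of -1.16 with an adjusted p of 0.00108. The adjusted p was 0.00279 with DESeq2, 0.0391 with limma-voom, 0.0147 without a count filter and 0.0467 with at least 10 counts in every library. It rose to at most 0.158, without WT replicate 3. The direction was the same in the 13 alternatives tried.

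Ocln-KO replicate 3, which set the spread of Esr1, also had the highest summed level of several marker lists, fibroblasts among them. The summed level of the 6 fibroblast markers Pdgfra, Dcn, Lum, Dpt, Col1a1 and Col1a2 was 3759 CPM in Ocln-KO replicate 3, 1514 and 2043 CPM in Ocln-KO replicates 1 and 2, and 1938 to 2114 CPM in WT. Col1a1 and Col1a2, at 1490 and 1416 CPM, made up most of the sum in Ocln-KO replicate 3. Dpt, at 4.79 CPM, and Pdgfra, at 246 CPM, were not highest there. None of the 6 passed the test, and 1 was higher without Ocln-KO replicate 1. The summed macrophage, endothelium, basal cell and lymphocyte markers were also highest in Ocln-KO replicate 3. The part of any of these cells in the level of Esr1 was not tested.

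Esr2, which encodes estrogen receptor β (chromosome 12, 76120419 to 76177259, minus strand), had between 8 and 49 counts in WT and between 10 and 37 counts in Ocln-KO. Its level was 1.31, 0.234 and 0.7 CPM for WT against 0.468, 0.314 and 1.09 CPM for Ocln-KO. The libraries overlapped, and the spread within each genotype was larger than the difference between them. The log2 fold change of -0.26 had a 95% interval from -1.89 to 1.37 (edgeR adjusted p = 0.844), which includes a difference of over 2-fold in either direction. It turned to 0.41 without WT replicate 1 and to 0.06 without Ocln-KO replicate 2.

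Gper1, the membrane estrogen receptor gene (chromosome 5, 139423150 to 139427800, plus strand), had 0, 5 and 6 counts in WT and 1, 8 and 1 counts in Ocln-KO. A level at or under 3 counts, which equals 0.0802 to 0.0942 CPM in these libraries and covers counting error only, was found in 1 WT and 2 Ocln-KO libraries, and no fold change is given. The gene lies within the span of 3110082I17Rik on the other strand, with which it shares no exon and which had 4.40 to 10.1 CPM.

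Nr3c1, the glucocorticoid receptor gene (chromosome 18, 39410545 to 39519421, minus strand), had 74.3, 70.5 and 66.8 CPM in the WT libraries and 84.6, 84.0 and 87.1 CPM in the Ocln-KO libraries. Every Ocln-KO library lay above every WT library, and both groups were tight, with coefficients of variation of 5.30% and 1.94%. The means were 70.5 ± 3.74 CPM for WT against 85.2 ± 1.65 CPM for Ocln-KO (SD, n = 3 per genotype), 121% of the WT level. The log2 fold change of 0.27 (standard error 0.08, 95% interval 0.09 to 0.46) had an edgeR adjusted p of 0.0734 and an unadjusted p of 0.00995. The adjusted p was 0.0449 with DESeq2 and 0.0389 with library totals only, a scaling that moved the median log2 fold change of all genes from 0.01 to 0.09.

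Nr3c2, the mineralocorticoid receptor gene (chromosome 8, 76898083 to 77245012, plus strand), had 15.1, 14.0 and 16.3 CPM in the WT libraries and 16.2, 12.5 and 12.4 CPM in the Ocln-KO libraries. The groups overlapped, Ocln-KO replicate 1 being close to the highest WT library. Nr3c2 had a log2 fold change of -0.14 (95% interval -0.49 to 0.21, edgeR adjusted p = 0.58).

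Pgr, the progesterone receptor gene (chromosome 9, 8898900 to 8968611, plus strand), was near the limit of detection, with 8, 13 and 5 counts in the WT libraries and 25, 7 and 21 counts in the Ocln-KO libraries. Ocln-KO replicates 1 and 3 were above and Ocln-KO replicate 2 within the WT range. The log2 fold change of 1.15 did not pass the test (95% interval -0.35 to 2.64, edgeR adjusted p = 0.281), and it lay between 0.80 and 1.61 with a library left out.

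Set side by side per kb of exon, the receptor genes of WT epididymis ranked from Nr3c1 at 9.18 ± 0.487 CPM per kb over Esr1 at 5.80 ± 0.19 and Nr3c2 at 2.34 ± 0.177 to Esr2 at 0.222 ± 0.16, with Gper1 at 0.0405 ± 0.0352 and Pgr at 0.0284 ± 0.0147 (SD, n = 3 per genotype). The libraries of neighbours in this order did not overlap down to Gper1, although the lowest Esr2 library rested on 8 counts, while those of Gper1 and Pgr overlapped. In Ocln-KO, Nr3c1 was at 11.1 ± 0.214 and Esr1 at 3.24 ± 1.13 CPM per kb (SD, n = 3 per genotype). Within each library the ratio of Esr1 to Nr3c1 counts was 1.03 to 1.23 in WT and 0.397 to 0.712 in Ocln-KO. In Ocln-KO the Esr1 and Nr3c2 levels per kb were closer, with Nr3c2 at 2.12 ± 0.337 (SD, n = 3), and the lowest Esr1 library, at 2.46, was below the highest Nr3c2 library, at 2.51.

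**Figure D3:**
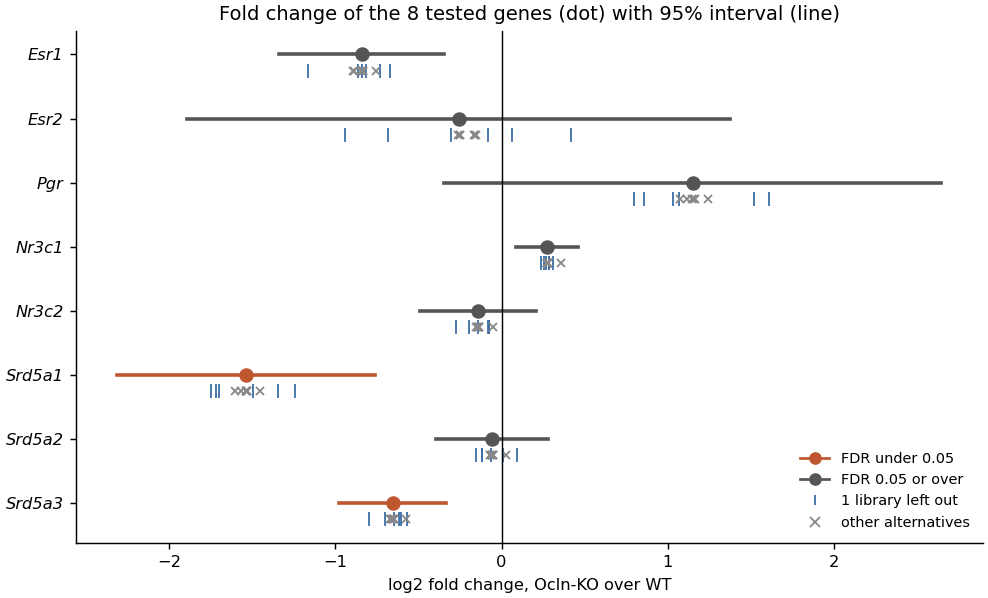
Log2 fold change of Ocln-KO over WT (horizontal axis) for the 8 tested genes, with the 95% interval as a line, the fits with 1 library left out as blue ticks and the other alternatives as grey crosses. Srd5a1 and Srd5a3, in orange, had an adjusted p under 0.05; the intervals of Esr1 and Nr3c1 also lie to 1 side of 0, and those of Esr2, Pgr, Nr3c2 and Srd5a2 include it.

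The other genes of steroid action were read from lists of names chosen with earlier results of these data known. Counts over these lists are descriptive, and no set test was run. None of the 10 receptor chaperones, of the 10 tested coregulators, of the 9 tested membrane progestin receptors, estrogen-related receptors and carriers, or of the 12 glucocorticoid-induced genes had an edgeR adjusted p under 0.05. DESeq2 called 2 chaperones lower and 1 gene lower and 2 higher among the receptors and carriers. The median log2 fold changes of these lists were -0.12, 0.06, 0.12 and -0.11. Unadjusted p-values under 0.05 were found for Hspa8, Dnajb1 and Ppid among the chaperones, for Nrip1 among the coregulators, for Pgrmc1, Paqr5, Esrra and Esrrg among the receptors and carriers, and for none of the glucocorticoid-induced genes. Pgrmc1, a heme-binding membrane protein, had 315, 337 and 268 CPM for WT against 319, 535 and 726 CPM for Ocln-KO (adjusted p = 0.101). Fkbp5, a co-chaperone that glucocorticoids and androgens induce, varied within both genotypes, with a WT range of 3.90 to 46.3 CPM and an Ocln-KO range of 3.43 to 28.5 CPM.

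Of the 30 steroid enzyme genes of the list, 28 were listed and 14 were abundant enough to be tested. Cyp17a1, Sult1e1 and Hsd3b7 fell and none rose at the edgeR threshold, 3 of 14 against 5.04% of all tested genes in the lower direction. The median log2 fold change of the list was -0.16, against 0.01 for all tested genes. Cyp17a1 encodes the enzyme that converts progestins to androgen precursors, and had 189, 159 and 227 CPM in the WT libraries and 14.3 to 41.6 CPM in the Ocln-KO libraries. Its log2 fold change was -2.60 (adjusted p = 0.0144), and Ocln-KO replicate 3 was again the lowest. Star and Insl3, which mark the steroidogenic Leydig cells of the testis together with Cyp17a1, had at most 3.24 and 0.282 CPM in any library, and Cyp11a1, which starts steroid synthesis, at most 0.281 CPM. Sult1e1, the estrogen sulfotransferase gene, had 80.1, 65.5 and 69.2 CPM in the WT libraries and 32.2, 34.9 and 24.7 CPM in the Ocln-KO libraries. The log2 fold change of Sult1e1 was -1.23 (adjusted p = 0.00943). Hsd3b7, an enzyme gene of bile acid synthesis, fell from 96.2 ± 16.9 to 52.4 ± 13.3 CPM (SD, n = 3 per genotype; adjusted p = 0.0396). Without WT replicates 1, 2 and 3 the 3 lower calls became 0, 2 and 0, and without Ocln-KO replicate 2 they became 2. Cyp19a1, the aromatase gene, had at most 0.44 CPM in any library, and Hsd11b2, which inactivates glucocorticoids, averaged 0.571 ± 0.293 CPM for WT against 1.75 ± 0.715 CPM for Ocln-KO (SD; adjusted p = 0.0832).

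Among 7 genes that estrogen is known to regulate in uterus or in the ducts of the male tract, Greb1, Ltf and Aqp9 fell and none rose at the edgeR threshold, where 5.04% of all tested genes fell. The median log2 fold change of the 7 was -1.27, against 0.01 for all tested genes. Greb1, an estrogen-induced cofactor of ESR1, had 82.0, 85.2 and 76.6 CPM in the WT libraries and 25.3, 41.4 and 20.6 CPM in the Ocln-KO libraries. The log2 fold change of Greb1 was -1.48 (adjusted p = 0.0192), and unlike Esr1 it was lowest in Ocln-KO replicate 3. Ltf, the lactoferrin gene, fell from 171 ± 77.3 to 71.0 ± 4.81 CPM and Aqp9, a water channel gene, from 258 ± 17.4 to 187 ± 9.59 CPM (SD, n = 3 per genotype; adjusted p = 0.0354 and 0.028). Slc9a3, the sodium-proton exchanger gene of the efferent ducts, had 5.08, 6.07 and 8.64 CPM for WT against 2.68, 2.54 and 0.651 CPM for Ocln-KO (adjusted p = 0.0633). Without each WT replicate in turn none of the 7 passed, where 5 had an unadjusted p under 0.05 in the full fit; without Ocln-KO replicates 1, 2 and 3 there were 2, 1 and 5 lower.

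Among the 7 tested genes of sodium transport linked to mineralocorticoids, Nedd4l rose at the edgeR threshold, where 3.91% of all tested genes rose. Nedd4l, a ubiquitin ligase gene that limits sodium channels at the cell surface, had a mean of 144 ± 11.6 CPM for WT against 199 ± 14.2 CPM for Ocln-KO (SD, n = 3 per genotype; adjusted p = 0.0318). Scnn1a, a subunit gene of the sodium channel, averaged 74.7 ± 4.45 CPM for WT against 39.6 ± 15.8 CPM for Ocln-KO (SD; adjusted p = 0.0711). The call of Nedd4l was lost without each WT replicate in turn and without Ocln-KO replicate 2.

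Androgen-dependent genes of the epididymal epithelium gave 1 call among 6 tested, in the higher direction, in which 3.91% of all tested genes were called. Gpx5, a glutathione peroxidase gene of the caput, rose, with 54.5, 172 and 26.3 CPM in the WT libraries and 256, 7264 and 10040 CPM in the Ocln-KO libraries (edgeR adjusted p = 0.0359; 0.0762 without Ocln-KO replicate 2 and 0.074 to 0.14 without a WT replicate). The Ocln-KO libraries were far apart, replicate 1 being close to the highest WT library. Spag11b, another caput gene, followed the same pattern, with 0.135 to 0.527 CPM for WT against 1.09, 144 and 215 CPM for Ocln-KO. Crisp1, which encodes a secreted sperm-coating protein, averaged 14891 ± 2188 CPM for WT against 7852 ± 2982 CPM for Ocln-KO (SD, n = 3 per genotype), with every Ocln-KO library below every WT library. Its log2 fold change of -0.92 did not pass (edgeR adjusted p = 0.0855, unadjusted p = 0.0136), but 1 gene of the list was called lower with DESeq2, without a filter and without Ocln-KO replicate 3. Crisp4, Adam7, Lcn5 and Lcn8 did not pass, at log2 fold changes from -0.33 to 0.04, and Rhox5 was listed at 0 in every library.

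**Figure D4:**
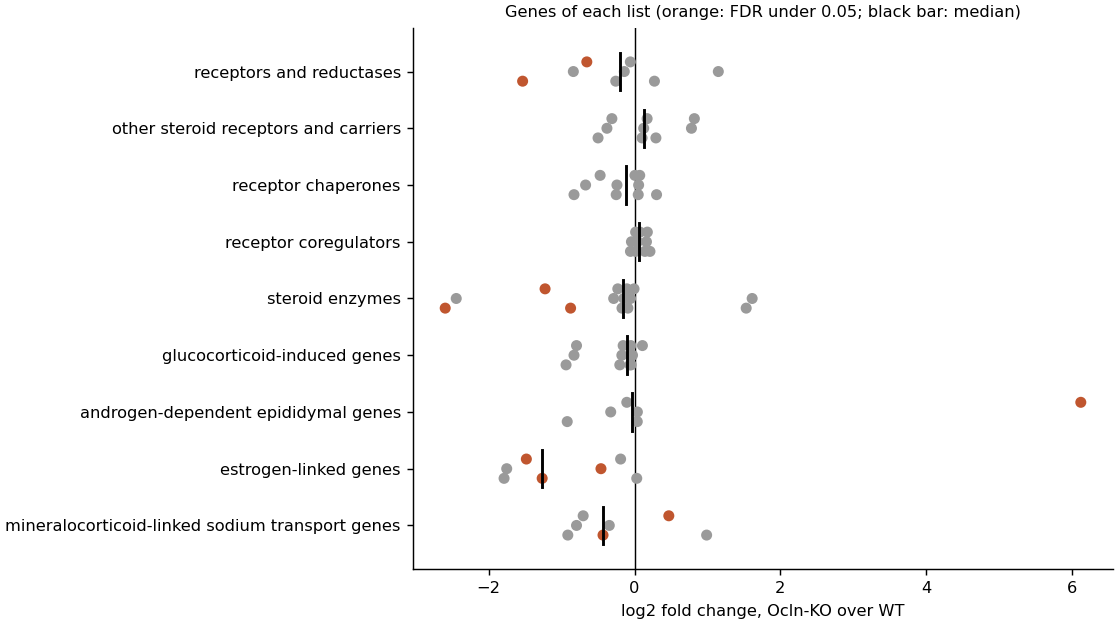
Log2 fold change of Ocln-KO over WT (horizontal axis) of each tested gene in the steroid-related lists, with the receptors and reductases in the top row, in orange where the adjusted p was under 0.05, with the median of the list as a black bar. The coregulators lie close to 0, the estrogen-linked genes have the lowest median, at -1.27, and Gpx5 is the point near 6.

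The cell type markers that moved with genotype are given beside these results, and their part in them was not tested. Of the 5 clear cell markers 4 fell at the edgeR threshold, where 5.04% of all tested genes fell. The summed level of the 5 was 84.5 to 106 CPM for WT against 42.1 to 52.9 CPM for Ocln-KO. Without any 1 WT replicate 0 of the 5 passed, and without Ocln-KO replicates 1, 2 and 3 there were 4, 2 and 3. Myh11 and Actg2 rose among the 7 smooth muscle markers, where 3.91% of all tested genes rose. The sum of the 7 was 1205 to 1451 CPM for WT against 1641 to 2220 CPM for Ocln-KO. The 2 calls were lost without any 1 WT replicate or Ocln-KO replicate 2, while leaving out Ocln-KO replicate 1 gave 5. The clear cell marker that defines the type, Foxi1, was at 15.7 to 24.0 CPM in Ocln-KO against 30.6 to 35.5 CPM in WT. Of the 7 markers of the proximal epididymis, Spag11b rose and Rnase10, Cst8, Cst11 and Lcn8 were at or under 2.30 CPM in every library, whereas Rnase9 and Ros1 were abundant in both genotypes. The call of Spag11b was lost without any 1 WT replicate, without Ocln-KO replicate 2 and with limma-voom. With at least 10 counts in every library it was not tested, as WT replicate 3 had 5 counts. With a replicate block none of the clear cell, smooth muscle or proximal markers passed. The efferent duct markers summed to 30.7 to 34.2 CPM for WT against 14.0 to 27.4 CPM for Ocln-KO. None passed the test, and 1 was lower without Ocln-KO replicate 3, with DESeq2, with limma-voom or without a filter. Ccno, at 22.9 to 24.7 CPM for WT against 9.66 to 21.7 CPM for Ocln-KO, made up most of the sum. Foxj1 went the other way, at a log2 fold change of 0.97 (edgeR adjusted p = 0.24), and Mcidas overlapped between the genotypes.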

How the data were processed

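Whole epididymis RNA was depleted of rRNA, made into directional libraries and read from both ends. Cleaned reads were mapped by the authors with HISAT2 (2.0.4 in the submitters' processing notes) to GRCm38, and HTSeq gave the reads per gene. The deposited values are raw counts, without normalization, and the counting mode and strand setting are not given in the sources used here. Columns were matched to samples by title, with 0 unmatched. Date-like text stood in place of 28 symbols (0.145% of counts).

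Genes were filtered with filterByExpr, which left 19691 of the 32046 with a count. Counts were scaled by TMM factors and compared without pairing with glmQLFit and glmQLFTest of edgeR 4.0.16 (R 4.3.3; limma 3.58.1 and DESeq2 1.42.0 as alternatives), and p-values were adjusted over all genes tested. Standard errors are the log2 fold change over the root of F, and 95% intervals use the t distribution. CPM values are counts over TMM-scaled library sizes. With 3 libraries against 3 no exact permutation test can go below 0.1, so none is given. Where libraries are not from separate animals, p-values measure only the spread between libraries. The fits were tested on simulated counts.

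The genes, the lists and the rule for naming (all 9 genes, up to 4 called genes per list, and the 3 genes most correlated with each called gene) were chosen with earlier results of these data known. Genes past that rule were named after their values were seen. A result of the sodium transport list is not reported here, but its genes are counted in the totals over the lists. The marker lists stand for the proximal and distal epididymis, clear, basal, smooth muscle and Leydig cells, fibroblasts, macrophages, lymphocytes, endothelium, adipocytes, sperm, blood, efferent ducts and brain. Slc9a3 was in both the efferent duct list and the estrogen-linked list. Positions and upstream sequences come from RefSeq (GRCm38.p6), and exon lengths from GENCODE M21 (GRCm38). All 9 genes had a position, and 8 of the 9 had an upstream sequence, Nr3c1 being the exception. Alternatives tried were leaving out each library, a replicate block, RLE factors or library totals as the scaling, limma-voom, DESeq2, and no filter or a minimum of 10 counts per library.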

Additional observations from a re-analysis of the deposited data

How the results depend on the processing

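The 2 genes called lower became 0 with a replicate block, 1 with the fold change threshold added and between 0 and 2 with a library left out. The 0 called higher became 1 with DESeq2 and with library totals only. For the steroid-related lists together, 7 genes were lower and 2 higher. These became 15 and 5 with DESeq2, 14 lower without a filter, 0 and 0 with the block, and 0 to 10 lower and 0 to 3 higher with a library left out. Over all genes, 992 lower and 770 higher became 1708 and 1604 with DESeq2, 1175 higher with library totals only, 31 and 10 with the block, 19 and 4, 145 and 85, and 40 and 16 without WT replicates 1, 2 and 3, and 342 and 220 without Ocln-KO replicate 2. Higher genes were 43.7% of calls, and 63.5% with library totals only. The sign turned for Esr2 without WT replicate 1 and without Ocln-KO replicate 2 (0.41 and 0.06; -0.94 to 0.41 over the libraries left out) and for Srd5a2 with library totals only (0.025), without WT replicate 1 (0.01) and without Ocln-KO replicate 1 (0.093; -0.15 to 0.093 over the libraries left out). The cause was not tested. Libraries of the same number did not deviate together (correlations -0.053, -0.031 and -0.003), so the numbers were not taken as pairs; under the block Srd5a1 and Srd5a3 had adjusted p-values of 0.107 and 0.101. Esr2, Pgr and Gper1 had at most 49, 25 and 8 counts in any library.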

Other observations

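Over the 6 libraries, the genes whose log2 CPM was most like that of Srd5a1 were Tln2, Tmem177 and Tmbim6, with Pearson's r of 0.999, 0.996 and 0.995, among 16357 other genes with a mean of at least 1 CPM. For Srd5a3 they were 2810428I15Rik, Nqo2 and Tomm6, with r of 0.9998, 0.999 and 0.998. The 6 points share genotype and library, and 525 genes for Srd5a1 and 299 for Srd5a3 had an r above 0.95.

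Markers of other cell types were read as lists by the same edgeR test, which called 5.04% of all tested genes lower and 3.91% higher. Of 5 macrophage markers all had a log2 fold change above 0 and none passed, with a sum of 89.9 to 98.7 CPM for WT against 103 to 185 CPM for Ocln-KO. All 5 were called higher without Ocln-KO replicate 1, and 3 with DESeq2. Lymphocyte markers summed to 1.79 to 2.17 CPM for WT against 3.80 to 5.18 CPM for Ocln-KO, with none past the test. Of 5 blood markers, Alas2 fell, and the sum was 21.9 to 49.6 CPM for WT against 6.04 to 13.2 CPM for Ocln-KO. The 4 adipocyte markers summed to 3.85 to 7.94 CPM for WT against 0.592 to 3.09 CPM for Ocln-KO, with none past the test and 1 lower without Ocln-KO replicate 1 or with DESeq2. Among 4 basal cell markers Krt14 rose. No marker of endothelium or of sperm passed, with 1 sperm marker higher without Ocln-KO replicate 3. The summed sperm markers were lowest in Ocln-KO replicate 3, at 64.2 CPM against 189 to 270 CPM in the other libraries. Of the 4 distal markers only Hoxa10, at 1.01 to 2.90 CPM, was abundant enough to be tested, and it did not pass. The list therefore says little about the distal epididymis. Among 6 brain markers Mbp rose, from 10.2 ± 0.434 to 15.7 ± 1.19 CPM (SD, n = 3 per genotype). The calls of Alas2, Krt14 and Mbp were lost without any 1 WT replicate or Ocln-KO replicate 2 and with a replicate block. That of Mbp was also lost without Ocln-KO replicate 1.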
